A study of Mus musculus with 20 samples.

Results

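The levels of 5 genes of liver glucose, nitrogen and glyoxylate metabolism, Pygl, Pcx, Cps1, Slc25a15 and Agxt, were followed across the livers of 20 mice. They were found by reading the counted intervals as mouse mm10 positions, keeping intervals that lay over the exons of exactly 1 mouse gene by at least 50 bp, and summing them per gene. All 5 were found among 5552 genes with such intervals, of which 4217 had counts, and all 5 passed the filter on low counts that left 2200 genes for testing. The mice were controls or had received anti-CD40, which binds CD40, a costimulatory receptor of B cells, dendritic cells and macrophages. Each treatment was studied with antibiotics (ABX) and without them, with 5 individual mice in each of the 4 groups. The labels call the groups Control_No_ABX, Control_ABX, Anti-CD40_No_ABX and Anti-CD40_ABX, and number the mice 6 to 10, 1 to 5, 16 to 20 and 11 to 15 in that order. The sources used here do not state whether the antibody activates or blocks CD40, its dose and timing, the antibiotics, or the strain, sex and age of the mice.

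The liver stores glucose as glycogen, releases it by phosphorolysis, and makes new glucose from lactate and amino acids by gluconeogenesis. Nitrogen from the amino acids burnt on the way is turned into urea, a cycle that begins and partly runs inside the mitochondria of hepatocytes. Pygl, the liver glycogen phosphorylase, releases glucose units from glycogen. Pcx, pyruvate carboxylase, makes oxaloacetate for gluconeogenesis and for refilling the citric acid cycle. Cps1, carbamoyl phosphate synthetase, fixes ammonia in the first step of the urea cycle, and Slc25a15 exchanges ornithine and citrulline across the inner mitochondrial membrane. Agxt moves the amino group of alanine to glyoxylate, which removes glyoxylate before it can become oxalate.

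The reads had been aligned to the mouse genome but counted over exons of a human annotation, so each gene was seen only where a human interval happens to fall on a mouse exon. Such parts made up 3.15% of the exon length of Pygl, 10.5% of Pcx, 7.06% of Cps1, 3.7% of Slc25a15 and 9.9% of Agxt. The same features also covered bases outside exons, which counted into the gene's value: 160 bp of intron and a stretch of similar length outside the gene for Pygl, 275 bp of intron for Slc25a15, and 2244 bp of intron and 3497 bp outside the gene for Agxt. For Cps1 they covered 1354 bp of intron and 1786 bp outside with exon 15, and 666 and 1421 bp with exon 1; the part of such bases in the counts was not tested. Levels are therefore compared between mice for 1 gene, and not between genes. Levels are CPM, counts per 1000000 counted fragments after scaling between libraries by TMM, given per mouse and as mean ± SD (n = 5). Each change is a log2 fold change with its SE, estimated by edgeR, and a gene is called where its Benjamini-Hochberg adjusted p, taken over all 2200 genes, is under 0.05. The edgeR p-values set a difference of group means against the spread between individual mice within groups, estimated over all 4 groups.

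**Figure D1:**
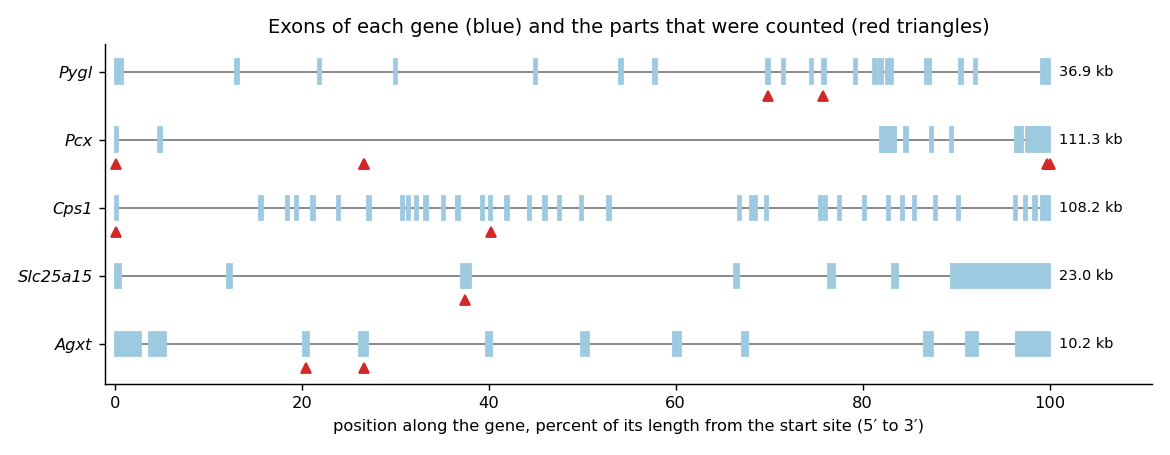
Position of the exons (blue boxes) and of the counted parts (red triangles) along each gene, as percent of the gene's length from its start site, for the first transcript of each gene in the annotation; the length in kb stands at the right. Pygl, Slc25a15 and Agxt were seen inside the gene, Cps1 at exons 1 and 15, and Pcx at both ends and at 1 exon that this transcript does not hold.

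Counted coding bases of Pygl, Agxt and Pcx are shown here because they are what these data see of those coding regions. They come from the mouse GENCODE M21 transcripts (GRCm38, which is mm10), run 5′ to 3′ on the gene's strand, and have the counted bases in capitals. Pygl (ENSMUSG00000021069.17) lies on the minus strand at chr12:70190811-70231488 and was counted in coding exons 8 (chr12:70201845-70201988) and 11 (counted at chr12:70199733-70199805) of 20. Cps1 (ENSMUSG00000025991.8), on the plus strand at chr1:67123026-67231259, was counted in coding exon 15 of 38 and in exon 1, which is partly untranslated. Slc25a15 (ENSMUSG00000031482.9), on the minus strand at chr8:22375551-22398597, was counted in coding exon 3 of 7. Agxt (ENSMUSG00000026272.6), on the plus strand at chr1:93135240-93145421, was counted in coding exons 3 (chr1:93137295-93137359) and 4 (chr1:93137900-93138000) of 11. Pcx (ENSMUSG00000024892.17), on the plus strand at chr19:4510472-4621752, was counted at both ends, and the counted coding part of its last exon (chr19:4621194-4621236) is printed.
Pygl exon 8: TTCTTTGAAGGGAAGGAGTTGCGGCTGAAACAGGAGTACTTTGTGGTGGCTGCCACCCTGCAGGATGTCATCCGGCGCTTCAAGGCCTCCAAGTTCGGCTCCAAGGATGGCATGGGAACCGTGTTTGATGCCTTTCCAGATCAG
Pygl exon 11: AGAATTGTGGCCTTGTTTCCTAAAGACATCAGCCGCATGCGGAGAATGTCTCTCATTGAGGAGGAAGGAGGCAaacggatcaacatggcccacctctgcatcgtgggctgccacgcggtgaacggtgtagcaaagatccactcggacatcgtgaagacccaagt
Agxt exon 3: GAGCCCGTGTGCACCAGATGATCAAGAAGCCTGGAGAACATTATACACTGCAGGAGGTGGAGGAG
Agxt exon 4: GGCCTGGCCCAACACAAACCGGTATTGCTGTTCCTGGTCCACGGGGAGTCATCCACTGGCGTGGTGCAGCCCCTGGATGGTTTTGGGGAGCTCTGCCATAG
Pcx exon 21, counted coding part: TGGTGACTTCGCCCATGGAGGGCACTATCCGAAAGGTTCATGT

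Libraries held 5053014 to 7618736 counted fragments, and the summed counts of a single member ranged from 632 (the lowest of Agxt) to 27249 (the highest of Cps1) per library. The mitochondrial share of counts was 28.5% ± 3.53 (SD, n = 5) in controls and 24.8% ± 0.795 in anti-CD40 mice if no ABX was given, and 32.2% ± 2.16 and 23.3% ± 1.86 if it was. Mouse 8, a control without ABX, had 22.42% and stood apart from its group. Of the hepatocyte list (albumin and other defining genes), 6 of 20 genes were measured, with a summed level of 222000 to 315000 CPM in control mice and 72700 to 140000 CPM in anti-CD40 mice. The sum was mostly albumin, and the list went both ways: in each comparison 4 genes were lower, such as Alb (-1.39 and -1.34 without and with ABX), and 2 were higher, Fgfr4 (0.74 and 0.55) and Apob (0.23 and 0.38, not called with the plate column as a term). Of the monocyte and macrophage list 4 of 15 genes were measured, at 112 to 333 CPM in sum in control mice and 283 to 1100 CPM in anti-CD40 mice. This sum was mostly Lyz2, while the macrophage marker Adgre1 fell by 2.50 ± 0.39 (adjusted p = 1.63e-05) without ABX. Of 14 T and B cell markers 4 were measured, at 16.8 to 32 CPM in control and 22.2 to 44.1 CPM in anti-CD40 mice. Most of this sum was Ighm, while Cd8a and Cd8b1 rose from few counts without ABX (means of 0.376 to 2.21 and 0.343 to 2.33 CPM). Of 8 endothelial markers 3 were measured, at 89 to 145 and 14.5 to 102 CPM in sum. Among them 1 was called lower without ABX and 2 with ABX. Without ABX the mean of Stab2 went from 46 to 4.5 CPM, Pecam1 from 54.4 to 47.7 and Stab1 from 11.4 to 12.7 CPM. Of 13 stellate and cholangiocyte markers 4 were measured, at 80.6 to 221 and 16.5 to 146 CPM in sum, mostly Col3a1, whereas Sox9 of the same list rose by 3.05 ± 0.25 without and 2.43 ± 0.29 with ABX, and none of 8 neutrophil markers was measured. In a bulk piece of liver, fewer hepatocytes and less RNA of a gene per hepatocyte cannot be told apart, and the part of cell makeup in the results was not tested.

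The first comparison asked how anti-CD40 changed the 5 genes in mice without ABX. Pygl, Cps1, Agxt and Slc25a15 were lower and Pcx was higher, and in all 5 the 5 anti-CD40 mice lay entirely on 1 side of the 5 control mice. All 5 were called. Anti-CD40 called 60.6% of all tested genes here (28.8% lower and 31.8% higher), and 21.1% of genes were lower and 21.4% higher without overlap of the groups. By size, 2.91% of tested genes had a more negative change than Cps1, 3.27% than Pygl, 5.5% than Agxt and 25.4% than Slc25a15, and 8.82% had a more positive change than Pcx.

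Pygl, the glycogen-degrading enzyme, lost most of its signal under anti-CD40. Without ABX it measured 688.7, 677.6, 426.0, 687.9 and 673.9 CPM in control mice 6 to 10 and 135.8, 130.3, 168.9, 148.8 and 153.2 CPM in anti-CD40 mice 16 to 20. Mouse 8 lay far below the other 4 control mice, which were close together, and still well above every anti-CD40 mouse. The mean went from 630.9 ± 114.7 to 147.4 ± 15.18 CPM, a 4.28-fold decrease (log2 fold change -2.10 ± 0.11, adjusted p = 9.48e-14). With ABX, control mice 1 to 5 measured 703.8, 618.6, 622.9, 648.9 and 637.5 CPM and anti-CD40 mice 11 to 15 measured 139.5, 148.1, 145.6, 164.3 and 177.8 CPM. The drop was of about the same size (-2.06 ± 0.11, adjusted p = 1.41e-13), and the difference between both drops was 0.04 with a 95% interval of -0.28 to 0.36. ABX itself moved Pygl little: it gave 0.03 ± 0.11 in control mice (adjusted p = 0.906) and 0.07 ± 0.11 in anti-CD40 mice (adjusted p = 0.685), with overlapping groups in both cases and intervals of -0.19 to 0.26 and -0.15 to 0.30. The sign of the value in control mice turned with library totals as the scaling (-0.09) and without mouse 8 (-0.08).

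Cps1, the entry step of the urea cycle, showed the largest change of the 5 without ABX. Control mice 6 to 10 measured 3807, 3647, 2944, 3728 and 4042 CPM, and anti-CD40 mice 16 to 20 measured 760.4, 723.8, 642.3, 750.6 and 808.4 CPM. The highest anti-CD40 mouse was far under the lowest control mouse, and the mean fell 4.93-fold, from 3634 ± 412.8 to 737.1 ± 61.16 CPM (-2.30 ± 0.11, adjusted p = 9.13e-15). With ABX, control mice 1 to 5 measured 4342, 4751, 4036, 3714 and 3864 CPM, and anti-CD40 mice 11 to 15 measured 1307, 972.6, 1324, 1069 and 1086 CPM. Again no values overlapped, and the mean fell 3.6-fold, from 4142 ± 412.9 to 1152 ± 155.8 CPM (-1.85 ± 0.11, adjusted p = 3.24e-13).

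Exons 1 and 15 of Cps1, counted as separate features, gave the same picture. Exon 15 held 54% and exon 1 held 46% of the Cps1 counts. Without ABX the log2 changes were -2.23 ± 0.10 in exon 15 and -2.32 ± 0.11 in exon 1, and with ABX -1.86 ± 0.10 and -1.85 ± 0.11. The ratio of exon 15 to exon 1 within a library was 1.13 ± 0.02 in control mice without ABX and between 1.2 and 1.21 on average in the other groups, so the proportion of the parts moved far less than the level of the gene. The 1.06-fold higher ratio under anti-CD40 without ABX had an exact permutation p of 0.0159 (two-sided, adjusted p = 0.0381 over 8 tests) with overlapping groups, and with ABX the ratios differed 0.995-fold (exact p = 0.865).

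Slc25a15, which carries ornithine and citrulline for the same cycle, moved much less. Control mice 6 to 10 measured 354.2, 371.9, 426.7, 400.5 and 417.3 CPM, and anti-CD40 mice 16 to 20 measured 280.2, 276.8, 302.5, 255.1 and 319.9 CPM. The groups did not overlap, and mouse 20 at 319.9 CPM came nearest to the lowest control, mouse 6 at 354.2 CPM. The log2 change was -0.46 ± 0.10 (adjusted p = 0.000224), a 1.37-fold decrease. It was not called with library totals in place of TMM (-0.21, adjusted p = 0.0903), a scaling under which the median change of all genes was 0.27 in place of 0.03; relative to that median the value was -0.48. With ABX, control mice 1 to 5 measured 397.1, 412.9, 414.2, 425.6 and 447.6 CPM and anti-CD40 mice 11 to 15 measured 256.1, 199.4, 295.0, 198.4 and 232.3 CPM. That 1.78-fold decrease (-0.83 ± 0.10, adjusted p = 8.28e-08) was called under every scaling tried.

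Cps1 fell further than Slc25a15, so their ratio fell too. The count of Cps1 divided by that of Slc25a15 in the same library, a value that no scaling between libraries can alter, averaged 9.29 ± 1.44 in control mice and 2.58 ± 0.3 in anti-CD40 mice without ABX. The values ran from 6.9 to 10.7 in the first group and from 2.12 to 2.94 in the second. With ABX the averages were 9.91 ± 1.29 and 4.91 ± 0.354, with ranges of 8.63 to 11.5 and 4.49 to 5.39. The anti-CD40 mice thus stood below all controls, and the anti-CD40 mice with ABX stood between the controls and the anti-CD40 mice without ABX; these ratios of differently covered genes are given as a description, without a test.

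Agxt, the glyoxylate-detoxifying aminotransferase, was lower under anti-CD40 and, in control mice, higher with ABX. Control mice 6 to 10 measured 363.6, 370.8, 312.2, 367.8 and 339.0 CPM, and anti-CD40 mice 16 to 20 measured 118.6, 93.34, 104.2, 133.3 and 135.1 CPM. The mean fell 3-fold, from 350.7 ± 24.89 to 116.9 ± 18.15 CPM (-1.59 ± 0.09, adjusted p = 5.53e-13). Control mice 1 to 5, with ABX, measured 433.6, 466.5, 502.2, 514.0 and 496.9 CPM, and anti-CD40 mice 11 to 15 measured 186.0, 186.6, 159.9, 191.3 and 193.2 CPM. The decrease with ABX was 2.63-fold (-1.40 ± 0.09, adjusted p = 5.54e-12). None of the 4 groups overlapped another: anti-CD40 without ABX was lowest, anti-CD40 with ABX next, then control without ABX, and control with ABX highest.

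Pcx, the anaplerotic and gluconeogenic carboxylase, went the other way. Control mice 6 to 10 measured 416.4, 450.0, 673.8, 514.8 and 453.2 CPM, and anti-CD40 mice 16 to 20 measured 1666, 1211, 1654, 1990 and 1515 CPM. Mouse 8 was the highest control, at 1.47 times the mean of the other 4, and still lay well below every anti-CD40 mouse. The increase was 3.20-fold, from 501.6 ± 102.6 to 1607 ± 281.9 CPM (1.68 ± 0.12, adjusted p = 2.93e-11). With ABX, control mice 1 to 5 measured 427.2, 462.7, 470.0, 461.0 and 425.7 CPM, and anti-CD40 mice 11 to 15 measured 996.8, 1311, 1179, 1114 and 1200 CPM. The increase was 2.58-fold (1.37 ± 0.12, adjusted p = 1.21e-09), again without overlap.

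**Figure D2:**
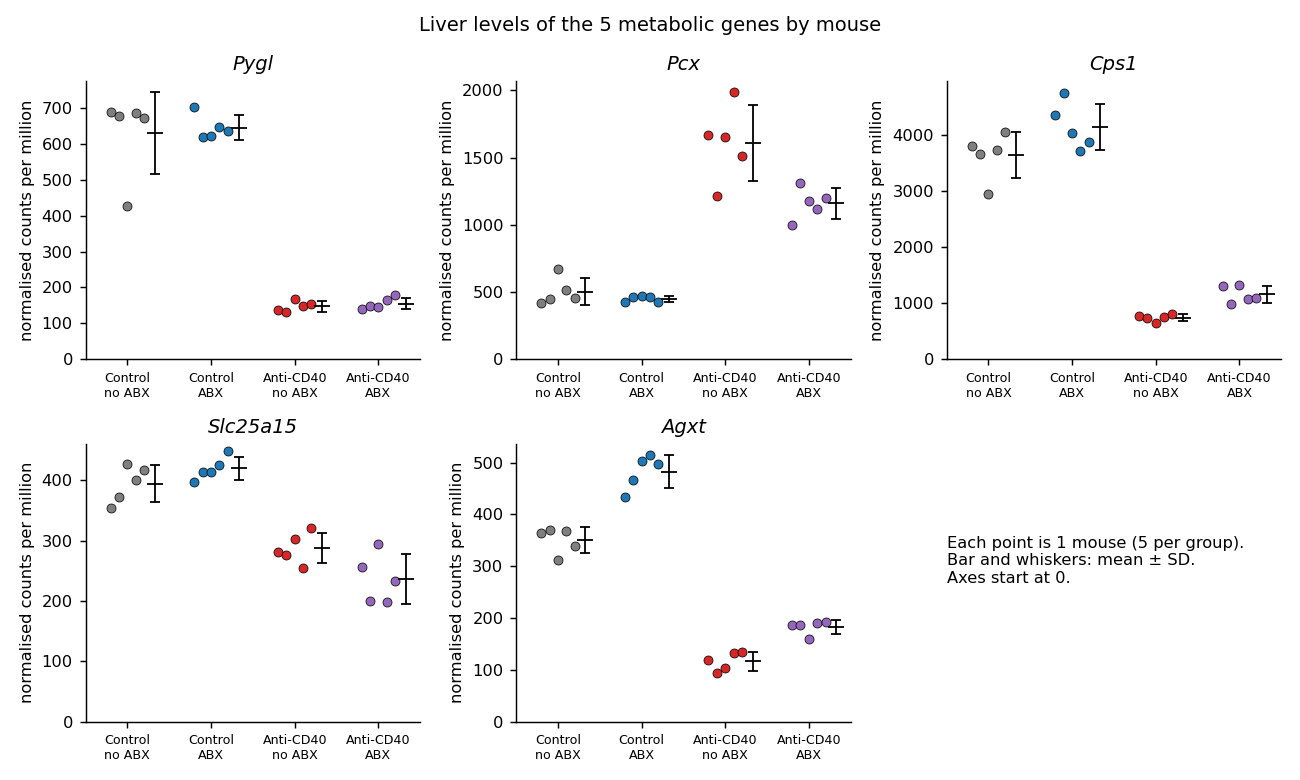
Normalised level (CPM) of the 5 genes in each mouse (points), with the mean and SD of each group of 5 mice beside them; all axes are linear and start at 0. Anti-CD40 mice lie below the controls of the same ABX status for Pygl, Cps1, Slc25a15 and Agxt and above them for Pcx, with no overlap; mouse 8 is the single low Pygl value among controls without ABX, at 426.0 CPM.

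With ABX all 5 genes were again called, against 51.5% of all tested genes (24.9% lower and 26.6% higher), and again none overlapped between the groups, against 18.5% of genes lower and 19.3% higher. The wells of the libraries, named in the labels, put the groups in different plate columns: column 3 held all controls with ABX and mice 6 to 8, column 4 held mice 9 and 10, all anti-CD40 mice with ABX and mouse 16, and column 5 held mice 17 to 20. Within column 4, mouse 16 differed from mice 9 and 10 by -2.33 (Pygl), 1.78 (Pcx), -2.35 (Cps1), -0.55 (Slc25a15) and -1.58 (Agxt) on the log2 scale, values with no replicate on the anti-CD40 side. For mice with ABX no column holds both treatments, so no value within a column exists. A fit with the plate column as a term kept all 10 calls of anti-CD40 against control, with values of -2.33 and -2.25 for Pygl, 1.78 and 1.45 for Pcx, -2.35 and -2.01 for Cps1, -0.55 and -0.92 for Slc25a15, and -1.57 and -1.41 for Agxt, without and with ABX. Without ABX this fit compares the treatments only through mouse 16 against mice 9 and 10, so it adds little to the values above. With ABX it links columns 3 and 4 only through control mice 6 to 8 against mice 9 and 10. It is therefore no independent check of the calls.

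The test of whether ABX altered the anti-CD40 effect called 0 of the 5 genes in edgeR, against 7.55% of all tested genes (4.36% higher and 3.18% lower); at an unadjusted p under 0.05 there were 2, Cps1 and Slc25a15. Cps1 came closest, with a decrease that was smaller with ABX by 0.46 ± 0.15 (95% interval 0.16 to 0.75, adjusted p = 0.0554). DESeq2 called it (0.45, adjusted p = 0.0219) and limma-voom did not. Leaving out mouse 2, 8, 12 or 20 brought it past the threshold in edgeR, with 0.53 (adjusted p = 0.0162) without mouse 8. Slc25a15 had the opposite sign, with a difference of -0.37 ± 0.13 (95% interval -0.65 to -0.09, adjusted p = 0.0942) that was called without mouse 13 (-0.44, adjusted p = 0.0264). The differences were -0.31 ± 0.17 for Pcx (interval -0.67 to 0.04) and 0.19 ± 0.13 for Agxt (interval -0.08 to 0.46). With the plate column as a term none of the 5 had an unadjusted p under 0.05.

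The next question was what ABX did by itself. In control mice 1 of the 5 genes was called, against 6.68% of all tested genes (3.45% higher and 3.23% lower). Agxt rose 1.38-fold, from 350.7 ± 24.89 to 482.7 ± 32.53 CPM (0.46 ± 0.09, adjusted p = 0.00416), and its 5 values with ABX all lay above the 5 without, as did those of 3.55% of tested genes, while 2.68% lay lower without overlap. Within column 3, the 5 mice with ABX against mice 6 to 8 gave 0.47. Cps1 gave 0.19 ± 0.10 (adjusted p = 0.32), Slc25a15 0.09 ± 0.10 (adjusted p = 0.669) and Pcx -0.16 ± 0.12 (adjusted p = 0.52), all with overlapping groups, and the intervals reached 0.40, 0.29 and -0.41. The sign of Slc25a15 turned with library totals (-0.04).

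In anti-CD40 mice 4 of the 5 genes were called between ABX and no ABX, against 15.9% of all tested genes (8.68% higher and 7.23% lower), 2 upward and 2 downward. Cps1 was 1.56-fold higher with ABX (0.64 ± 0.10, adjusted p = 0.000212) and Agxt 1.57-fold higher (0.65 ± 0.09, adjusted p = 7.54e-05). For both, the lowest mouse with ABX lay above the highest mouse without, as for 5.95% of tested genes (4.09% were lower without overlap), and 4.09% and 4% of genes had a more positive change than Cps1 and Agxt. Pcx was lower with ABX (-0.47 ± 0.12, adjusted p = 0.0101), and here mouse 12 with ABX, at 1311 CPM, lay above mouse 17 without, at 1211 CPM. Slc25a15 was lower by a margin near the threshold (-0.28 ± 0.10, adjusted p = 0.0476), and mouse 13 with ABX exceeded mice 16, 17 and 19 without. That call was lost when mouse 11, 12, 14, 15, 16, 18 or 20 was left out, with values between -0.35 and -0.21 over all such fits. Pygl gave 0.07 and was not called.

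These 4 ABX differences under anti-CD40 rest on few libraries within a plate column: column 4 holds all 5 mice with ABX but only mouse 16 without. Against mouse 16 alone the values were 0.60 for Cps1, 0.63 for Agxt, -0.52 for Pcx and -0.25 for Slc25a15, close to those over all mice. With the plate column as a term none was called, with adjusted p of 0.155, 0.125, 0.258 and 0.535. Without mice 14, 15, 19 and 20, whose summed monocyte and macrophage markers (283 to 427 CPM) were below those of the other 6 anti-CD40 mice (531 to 1100 CPM), Cps1 gave 0.77 and Agxt 0.76 and both were called, whereas Pcx (-0.37, adjusted p = 0.165) and Slc25a15 (-0.19, adjusted p = 0.349) were not. The left-out mice were also set apart by summed endothelial markers (14.5 to 26.1 CPM, against 41.6 to 102 CPM). Their stellate and cholangiocyte sums (16.5 to 48.7 CPM) overlapped those of the other 6 (22.3 to 146 CPM).

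**Figure D3:**
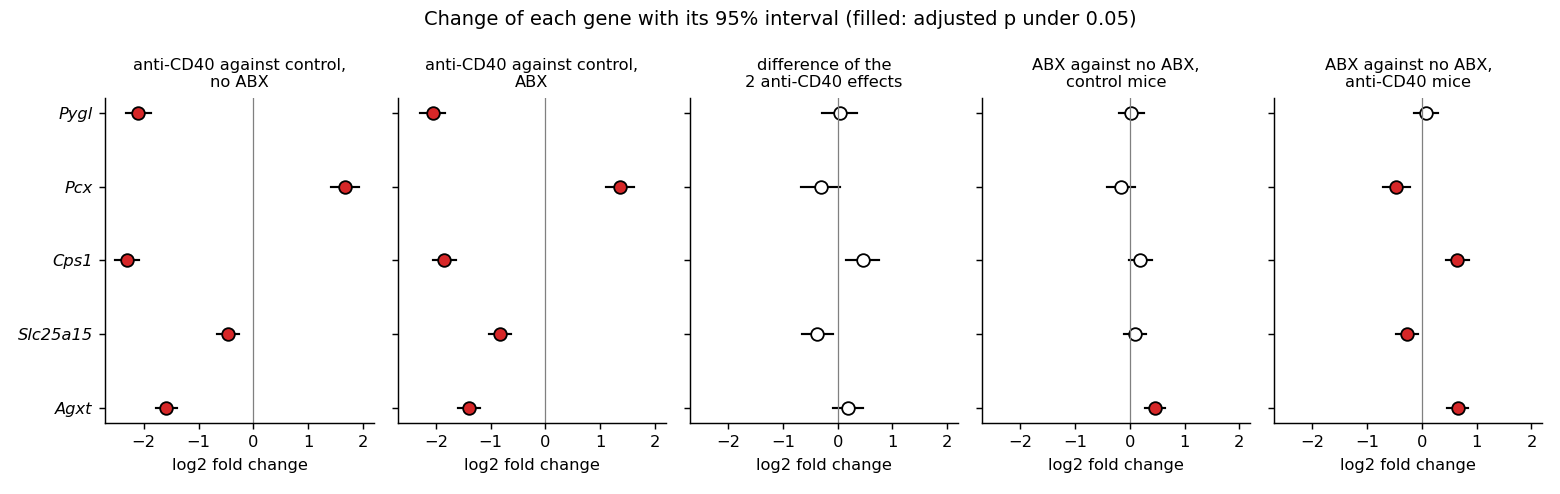
Log2 fold change of each gene in the 5 comparisons (points) with its 95% interval (lines); filled points have an adjusted p under 0.05. All 10 anti-CD40 changes are filled, no difference of the anti-CD40 effects is, Agxt is the single filled point for ABX in control mice, and for ABX in anti-CD40 mice Cps1 and Agxt lie above 0 and Pcx and Slc25a15 below.

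Pcx was counted at both of its ends, and the ends did not behave alike. The first exon (chr19:4510472-4510581, untranslated) gave 12.4% of the Pcx counts and the last exon (exon 21 of 21, chr19:4621194-4621236 and 4621557-4621710) gave 87.5%; both remaining intervals held 125 and 43 counts over all 20 libraries. The annotation holds transcripts that begin at the first exon (Pcx-201 at position 4510472 and Pcx-204 at 4510486) and a transcript, Pcx-202, that begins far downstream at 4594346 and shares the last exon but not the first. A short transcript, Pcx-203, begins at 4510526, within the counted first-exon interval, and ends at 4530928, before the last exon. The interval set with the first exon also covers 3485 bp of intron and 2907 bp outside Pcx, and the one with the last exon covers 289 bp past the gene's end (chr19:4622019-4622307). Counts belong to the whole set, of which 110 bp and 197 bp are exon, and are named here and below after the exon. The part of the other bases in these counts was not tested. The next annotated gene, Rce1, begins at 4622591, beyond it.

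The last exon carried most of the increase. It measured 306, 335.9, 531.1, 412.1 and 349.4 CPM in control mice 6 to 10 and 1555, 1070, 1569, 1855 and 1375 CPM in anti-CD40 mice 16 to 20. The first exon measured 104.7, 102.2, 145.5, 96.49 and 95.81 CPM in the same controls and 133.9, 138.8, 132.7, 144.1 and 139.4 CPM in the same anti-CD40 mice. The last exon rose without overlap (1.94 ± 0.14, adjusted p = 9.49e-12 over 2827 features), whereas the first exon rose by 0.34 ± 0.10 (adjusted p = 0.00345) and mouse 8, at 145.5 CPM, lay above all 5 anti-CD40 mice. With ABX the last exon rose by 1.49 ± 0.14 (adjusted p = 1.31e-09), from 365.1 ± 17.36 to 1024 ± 130.2 CPM, and the first exon by 0.64 ± 0.10 (adjusted p = 3.55e-06), from 84.92 ± 6.116 to 132.1 ± 10.15 CPM.

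The ratio of last-exon to first-exon counts within a library does not depend on how libraries are scaled. It was 2.92, 3.29, 3.65, 4.27 and 3.65 in control mice 6 to 10 and 11.6, 7.71, 11.8, 12.9 and 9.86 in anti-CD40 mice 16 to 20. The groups did not overlap, and the ratio was 3.01-fold higher under anti-CD40 (two-sided exact permutation test over mice, p = 0.00794, the smallest that 5 against 5 can give, adjusted p = 0.0317 over 8 such tests). With ABX it was 4.01, 3.93, 4.44, 4.59 and 4.59 in control mice 1 to 5 and 5.64, 9.63, 7.84, 7.27 and 8.81 in anti-CD40 mice 11 to 15, a 1.79-fold difference, again without overlap and with the same exact p. In control mice the ratio was 1.22-fold higher with ABX than without (exact p = 0.0238, adjusted p = 0.0381), and in anti-CD40 mice it was 0.727 of that without ABX (exact p = 0.0397, adjusted p = 0.0529); both pairs of groups overlapped. Accordingly the ABX changes of the ends differed: the first exon gave -0.36 ± 0.10 in control mice (adjusted p = 0.0253) and -0.06 ± 0.09 in anti-CD40 mice (adjusted p = 0.714), the last exon -0.08 ± 0.14 (adjusted p = 0.819) and -0.54 ± 0.13 (adjusted p = 0.00868). The parts were tied to 2 human interval sets only, which also cover bases outside exons. The share of each transcript in these values was not tested.

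**Figure D4:**
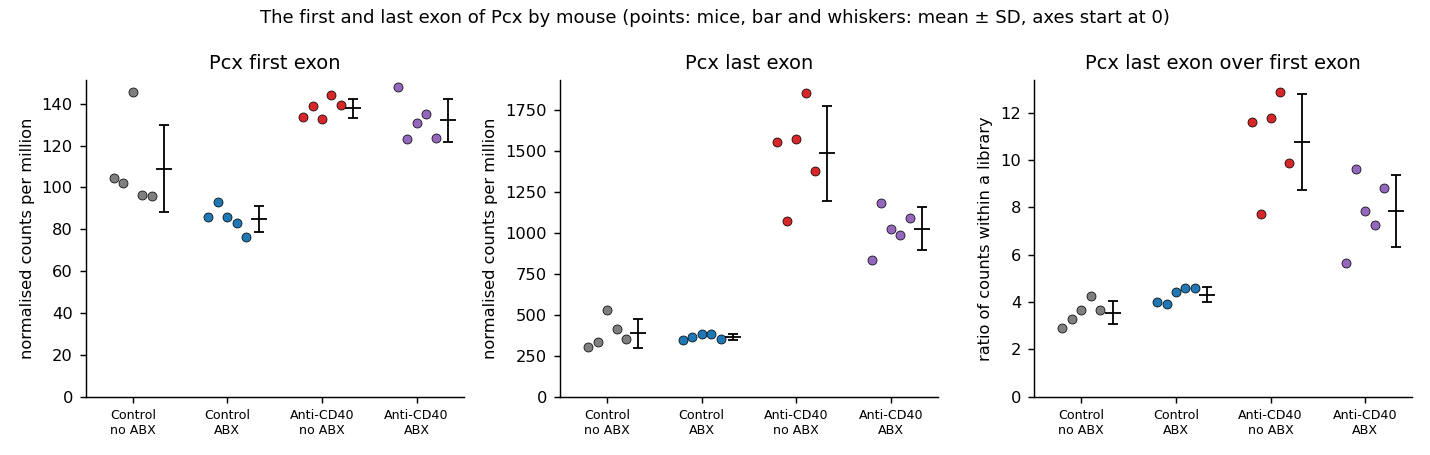
Levels of the first exon (left) and the last exon (middle) of Pcx in CPM, and the ratio of last-exon to first-exon counts within each library (right), per mouse with group mean ± SD. Axes start at 0. Each exon stands for its whole interval set, which also covers bases outside exons. The last exon and the ratio separate anti-CD40 mice from controls of the same ABX status, while the first exon of mouse 8 (145.5 CPM) lies above all 5 anti-CD40 mice without ABX.

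The sequences before both starts of Pcx are shown because the ends of the gene moved by different amounts. They are the 250 bases upstream of each start in RefSeq (GRCm38.p6, plus strand), at chr19:4510222-4510471 for the upstream start and chr19:4594069-4594318 for the downstream start. Capitals mark matches to any of 7 motifs searched on both strands: the box named CCAAT after its letters, the GC box with the letters GGGCGG, the TATA box with TATAAA, the cAMP response element with TGACGTCA, the E-box with CACGTG, the C/EBP motif with TTGCNNAA and the STAT motif with TTCNNNGAA.
Pcx upstream start: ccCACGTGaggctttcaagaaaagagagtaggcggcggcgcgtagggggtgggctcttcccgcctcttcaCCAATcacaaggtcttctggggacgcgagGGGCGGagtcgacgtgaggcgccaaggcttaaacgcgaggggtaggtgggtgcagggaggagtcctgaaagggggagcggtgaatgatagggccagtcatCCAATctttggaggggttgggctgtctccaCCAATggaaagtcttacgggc
Pcx downstream start: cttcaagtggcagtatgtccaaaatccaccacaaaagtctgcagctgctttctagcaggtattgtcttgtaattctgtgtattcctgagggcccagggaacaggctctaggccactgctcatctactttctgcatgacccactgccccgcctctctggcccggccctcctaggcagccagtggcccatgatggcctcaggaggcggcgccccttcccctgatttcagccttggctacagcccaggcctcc

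The upstream window held 3 CCAAT boxes, 1 GC box and 1 E-box, motifs found in 33.8%, 32.7% and 6.02% of 32851 RefSeq promoter windows of the same length. The downstream window held none of the 7, and neither window held a TATA box (12.4% of windows), a cAMP response element (1.55%), a C/EBP match (9.56%) or a STAT match (7.02%). The upstream window was 60.8% G or C and the downstream window 58%.

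The other genes of these pathways were taken from lists, of which a part was measured. Of 27 glycogen genes, 4 besides Pygl were tested: Epm2a, the laforin phosphatase of glycogen, fell with ABX (-0.96 ± 0.12, adjusted p = 2.78e-07) and narrowly without (-0.27 ± 0.12, adjusted p = 0.0499). Epm2a without ABX did not pass under library totals, nuclear totals, the plate column as a term or the removal of mouse 8. The branching enzyme Gbe1 (-0.02 and 0.15 without and with ABX) and the phosphorylase kinase subunits Phka1 (0.23 and -0.19) and Phkb (-0.04 and -0.13) were not called in either. Both kinase subunits had few counts, with 157 for Phka1 and 210 for Phkb summed over the controls without ABX. The other subunits of this kinase on the list, Phka2, Phkg1 and Phkg2, had no interval of their own, so the kinase was seen only in part. Pygl, the enzyme that the kinase activates, gave -2.10 and -2.06. With library totals, under which the median change of all genes was 0.27 and 0.37, Phka1 was called without ABX (0.48) and Gbe1 with ABX (0.51).

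Of 50 genes of gluconeogenesis and glycolysis, 8 besides Pcx were tested. Pfkm, a phosphofructokinase, fell by 1.21 ± 0.12 without ABX and 0.61 ± 0.12 with ABX, and Pdk2, a kinase that inactivates pyruvate dehydrogenase, fell by 0.85 ± 0.17 and 0.59 ± 0.17. Gpi1, the glucose 6-phosphate isomerase, rose (1.21 ± 0.33 and 0.91 ± 0.36), with overlapping groups in both comparisons. Its counts were few: summed over a group, 65 in control and 152 in anti-CD40 mice without ABX, and 48 and 99 with ABX. The cytosolic aspartate aminotransferase Got1 and the pyruvate carrier subunit Mpc2 were called lower only in mice with ABX (-0.84 ± 0.19 and -1.27 ± 0.35, against -0.01 ± 0.19 and -0.72 ± 0.32 without), and the differences between ABX states were not called (adjusted p = 0.0593 and 0.504). Mpc2 also had few counts, with 80 summed over the control and 36 over the anti-CD40 mice with ABX. The mitochondrial carboxykinase Pck2, which uses the oxaloacetate made by Pcx, gave 0.32 ± 0.21 and 0.03 ± 0.22, and Mpc1 gave -0.10 and 0.03; neither was called. With the plate column as a term the calls of Gpi1 and Pdk2 were lost in both comparisons, and those of Pfkm and Mpc2 with ABX. With library totals the call of Pck2 without ABX was gained (0.57), and those of Pfkm and Pdk2 with ABX were lost.

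Pcx also feeds the citric acid cycle and, as a biotin enzyme, shares its cofactor with a small group of carboxylases. Of 32 genes of that list, 8 were tested, and all 8 fell without ABX, where 28.8% of all tested genes were called lower, with a median of -0.87 against 0.03 for all genes. The largest decreases were in Aco1, the cytosolic aconitase (-1.14 ± 0.08), Mccc2, a subunit of the biotin enzyme methylcrotonyl-CoA carboxylase (-0.98 ± 0.08), and Suclg1, a subunit of succinyl-CoA ligase (-0.97 ± 0.11). Suclg2 (-0.90 ± 0.09), Idh3b (-0.85 ± 0.09), Sucla2 (-0.62 ± 0.10), Ogdh (-0.52 ± 0.08) and the biotin-recycling Btd (-0.44 ± 0.09) made up the rest. With ABX 7 fell, where 24.9% of all genes did, with a median of -0.64, and Btd was not called (-0.07 ± 0.09, adjusted p = 0.581). Btd without ABX (-0.43, adjusted p = 0.0889) and Ogdh with ABX (-0.36, adjusted p = 0.0724) were not called with the plate column as a term. With library totals 7 were lower without ABX, and with ABX 5 were lower and Btd was higher (0.29, adjusted p = 0.0148) while Ogdh turned sign (0.05). Under every scaling tried Pcx rose, so its direction differed from that of most of these enzymes.

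Of 27 genes of the urea cycle and ammonia handling, 4 besides Cps1 and Slc25a15 were tested. The aspartate-glutamate carrier Slc25a12 rose (0.30 ± 0.11 without and 0.50 ± 0.12 with ABX). The cationic amino acid transporter Slc7a2 fell (-0.61 ± 0.19 and -0.88 ± 0.19), and Aldh18a1, which makes the proline and ornithine precursor, was called only with ABX (1.12 ± 0.35, against 0.58 ± 0.31 without, adjusted p = 0.103, and an adjusted p of 0.506 for the difference). Aldh18a1 had few counts, with 48 summed over the control and 113 over the anti-CD40 mice with ABX. Its call without ABX was gained with library totals (0.84, adjusted p = 0.0284) and nuclear totals (0.76, adjusted p = 0.0498). Slc7a2 was not called without ABX under library totals (-0.36), nuclear totals (-0.45) or the plate column as a term (-0.41), and Slc25a12 was not called with the plate column as a term. The other cycle enzymes had no interval of their own and were not analysed here.

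Of 20 genes of glyoxylate, serine and glycine metabolism only Agxt was tested. Of 45 other genes of amino acid breakdown, 5 were tested and all 5 fell in both comparisons, where 28.8% and 24.9% of all tested genes were called lower. The medians were -1.26 and -1.11, against 0.03 and 0.02 for all genes. They were the histidine-degrading enzymes Uroc1 (-1.84 ± 0.10 and -1.46 ± 0.09) and Hal (-1.67 ± 0.11 and -1.54 ± 0.11), Kynu of tryptophan breakdown (-1.26 ± 0.08 and -1.11 ± 0.08), the methylmalonyl-CoA mutase Mut (-0.62 ± 0.09 and -0.77 ± 0.09) and Hibch of valine breakdown (-0.52 ± 0.09 and -0.38 ± 0.09). With library totals Hibch was no longer called with ABX (-0.03). In size Cps1 and Agxt lay in or beyond the range of these 5 genes, and Slc25a15 without ABX lay just outside its smaller end.

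**Figure D5:**
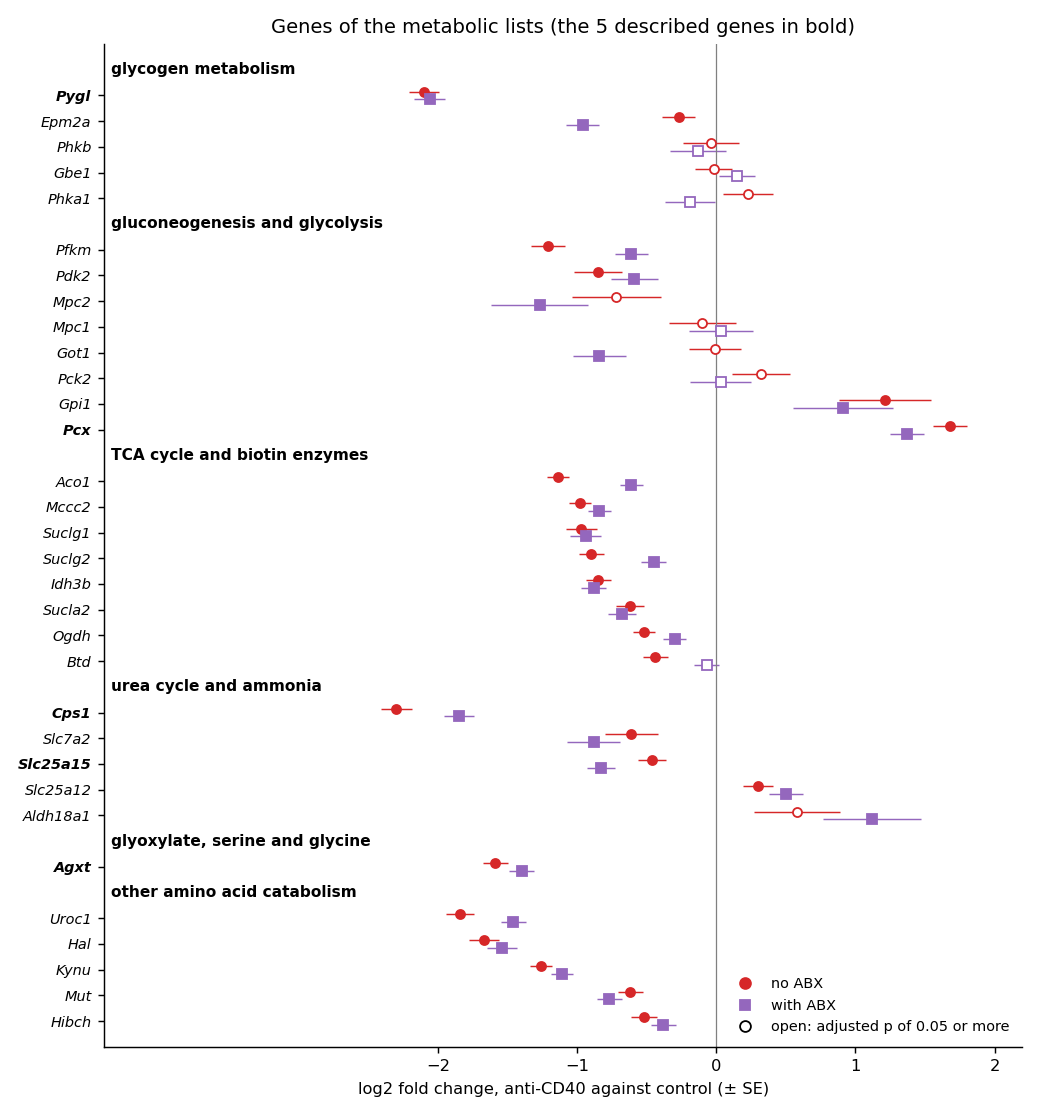
Log2 fold change of anti-CD40 against control (± SE) for tested genes of the 6 metabolic lists, without ABX (red circles) and with ABX (purple squares); open symbols have an adjusted p of 0.05 or more. Pcx, Gpi1, Slc25a12 and, with ABX, Aldh18a1 lie to the right with filled symbols, and all genes of the citric acid and amino acid lists lie to the left, of which Btd and Ogdh with ABX turned sign with library totals.

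Regulators of these genes were covered thinly, with 6 of 29 tested. Foxo3, a transcription factor of the insulin pathway, fell by 1.14 ± 0.13 without and 1.62 ± 0.13 with ABX. Foxo1, its relative and an activator of gluconeogenic genes, gave -0.23 ± 0.11 without ABX (adjusted p = 0.0775) and fell by 1.30 ± 0.11 with ABX (adjusted p = 5.87e-10). Its controls also differed, with means of 131 CPM without and 198 CPM with ABX, beside 112 and 80.6 CPM in anti-CD40 mice. With library totals the value of Foxo1 without ABX was 0.02. Klf9 (-1.42 ± 0.40 and -1.36 ± 0.41) fell in both, and Foxa2 fell without ABX (-1.08 ± 0.29). Klf9 had few counts: summed over a group, 156 in control and 61 in anti-CD40 mice without ABX, and 129 and 55 with ABX. With the plate column as a term Foxa2 was not called (-1.38, adjusted p = 0.104), nor was Klf9 with ABX (-1.37, adjusted p = 0.102).

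By the likeness of their pattern over the 20 libraries (root mean square difference of log2 CPM after subtracting each gene's mean, 1267 genes with a mean of at least 10 CPM), Agxt had the closest neighbours: Nipsnap1 at 0.151, Gpld1 at 0.155 and Alb, serum albumin, at 0.175. Slc25a15 was nearest to Nudcd3, Mief1 and Cul3 (0.186 to 0.189) and Pcx to Cpb2, a plasma carboxypeptidase, at 0.193, then Znrf1 and Pcsk5. Cps1 was near to Deptor (0.209) and Dpyd (0.213), and Pygl to Cyp2d22, Ttc39c and Gulo (0.228 to 0.233). Among the 5 genes themselves, Pygl and Cps1 were nearest to each other at 0.282 and Pcx was farthest from Cps1 at 1.865.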

How the data were processed

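Liver RNA was sequenced from 20 mice, 5 per group. The submitters' processing notes name Trimmomatic 0.38, HISAT2 2.1.0, featureCounts 1.5.0-p2 and the build mm10. Per the file headers, the deposited raw counts are fragments over exons of the human GRCh38 annotation (Ensembl 93), without strand. Here the intervals were read as mm10 and matched with bedtools 2.31.1 to GENCODE M21: of 58395 features 7463 were attributed, and 52.34% of counts lay in features over several genes. Counts were summed per gene and tested with edgeR 4.0.16 (R 4.3.3, quasi-likelihood, TMM, library size over all features, filterByExpr, Benjamini-Hochberg). Parts of a gene were fitted as separate features. The biological coefficient of variation was 16.7%. Alternatives used DESeq2 1.42.0, limma 3.58.1, other scalings, filters and overlaps, a plate column term, and left-out mice. Leaving out mice 14, 15, 19 and 20, the list counts under other scalings and the ratios of parts were added after seeing the data. The genes and lists were chosen with earlier results of these data known. Named were the 5 genes, all tested genes of the glycogen, gluconeogenesis, citric acid, urea and glyoxylate lists, up to 4 of each other list by smallest p, and 3 neighbours in pattern; Hibch and Apob were named outside that rule, after their values were seen, and a few genes and sequences under it are not reported here. The fitting script was tested on simulated data.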

Additional observations from a re-analysis of the deposited data

Results flagged for a closer look

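In 4 of 44 sets of 5 values, 1 mouse stood apart from the rest by Dixon's criterion (gap over range above 0.71), where chance gives about 1 in 20 for a single set. The sets are genes, their parts and ratios of parts in the same 4 groups of mice. They are not independent, so the count is not compared with that share. Mouse 8 of the controls without ABX accounted for 3 of the 4 flagged values. Its Pygl was low (log2 CPM 8.74, 426.0 CPM, gap over range 0.957), its Pcx first exon was high (log2 CPM 7.18, 145.5 CPM, 0.783), and the log2 ratio of Cps1 exon 15 to exon 1 was 0.23 (0.833). Mouse 8 also had the lowest mitochondrial share of its group, 22.42%. Its sums of monocyte and macrophage (333 CPM), endothelial (145 CPM) and stellate and cholangiocyte markers (221 CPM) were the highest of the group. So were its hepatocyte sum (244000 CPM) and the adipose marker Cfd (29.8 CPM), but not its T and B cell sum (24.5 CPM). The part of these in the flagged values was not tested. The other flagged value was Agxt in mouse 13, of the anti-CD40 mice with ABX (log2 CPM 7.32, 159.9 CPM, 0.786).

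The effect of anti-CD40 differed between mice with and without ABX, by the edgeR test of the difference, in 6 of the 62 listed genes tested, against 7.55% of all 2200 genes; the 6 belong to the metabolic and regulator lists. With ABX minus without, the difference was 0.54 for Aco1 (adjusted p = 0.00695), 0.45 for Suclg2 (0.0252) and 0.60 for Pfkm (0.0371), whose decreases were smaller with ABX. It was -0.69 for Epm2a (adjusted p = 0.015), -1.07 for Foxo1 (5e-04) and -0.73 for Trib1 (0.0151). With the plate column as a term edgeR called no difference among 2200 genes, and 282 had an unadjusted p under 0.05.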

How the results depend on the processing

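No paired analysis was possible because the labels number the mice 1 to 20 and the groups share no number. All 10 anti-CD40 changes of the 5 genes kept their direction in every alternative run that held the gene. In these runs 1 call was lost: Slc25a15 without ABX with library totals (-0.21, adjusted p = 0.0903). With library totals, Cps1 passed for the difference of effects (0.56, adjusted p = 0.0427), ABX in controls turned sign for Pygl (-0.09) and Slc25a15 (-0.04), and Slc25a15 under anti-CD40 was lost for ABX (-0.30, adjusted p = 0.0666). Calls over all genes split 932 higher to 405 lower without and 1035 to 312 with ABX, against 700 to 633 and 585 to 548 with TMM, and 820 to 454 and 754 to 391 with nuclear totals. Nuclear totals gave 83 differences of effects (166 with TMM) and -0.03 for Pygl under ABX in controls. With the plate column as a term, 735 and 690 genes were called for anti-CD40 without and with ABX (1333 and 1133 otherwise), 0 for the difference, 77 for ABX in controls (147) and 5 under anti-CD40 (350). ABX under anti-CD40 was then not called for Agxt (0.63), Cps1 (0.60), Pcx (-0.52) or Slc25a15 (-0.25). An overlap of 200 bp left fewer genes to test, with 872 and 752 anti-CD40 calls. It left out Pcx and Agxt, whose features all overlap less, and kept only exon 1 of Cps1. In that run Cps1 passed for the difference (0.50, adjusted p = 0.0413), as with DESeq2 (0.45). Slc25a15 for ABX under anti-CD40 was lost without a filter (-0.28, adjusted p = 0.0516) and with only the groups compared (-0.27, adjusted p = 0.105). The first exon of Pcx by itself gave 0.30 for the difference, -0.36 for ABX in controls and -0.06 under anti-CD40. Without mice 14, 15, 19 and 20 there were 79 differences and 170 ABX calls under anti-CD40, with Pcx at -0.37, Slc25a15 at -0.19 and the Pygl difference at -0.04. Leaving out 1 mouse gave 88 to 194 differences (fewest without mouse 14), 89 to 137 ABX calls in controls (fewest without mouse 10) and 225 to 364 under anti-CD40 (fewest without mouse 14). It gave differences of 0.41 to 0.53 for Cps1, -0.44 to -0.31 for Slc25a15 and -0.01 to 0.16 for Pygl (below 0 without mouse 15). For ABX it gave -0.08 to 0.07 for Pygl in controls and -0.35 to -0.21 for Slc25a15 under anti-CD40. Where a setting changed a call, the cause was not tested. Depth was not limiting for the 5 genes, whose lowest count per library was 632. Some listed genes had far fewer counts, such as Gpi1 with 48 summed over the controls with ABX. The counted share of each of the 5 genes, at most 10.5% of its exon length, limits what is seen.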
